A study of Homo sapiens with 4 samples.

Results

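The snoRNA host lncRNAs are long non-coding RNAs whose introns carry small nucleolar RNAs. Their members were taken by symbol from the count table: every gene named SNHG followed by digits, together with GAS5, ZFAS1, DANCR and EPB41L4A-AS1. This gave 32 of 59652 genes. The RNA came from Huh7 and PLC cells, human hepatocellular carcinoma lines of wild-type genotype, kept for 48 h in glucose-free DMEM with serum to which 5 mM or 25 mM glucose was added. Each line at each glucose level was 1 library of rRNA-depleted total RNA, so no condition had a replicate. Every difference between 5 and 25 mM within a line compares a pair of libraries and has no replicate check.

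A snoRNA host gene is transcribed and spliced, and the snoRNA is trimmed out of the removed intron. C/D box snoRNAs guide 2'-O-methylation of ribosomal RNA, H/ACA box snoRNAs guide pseudouridylation, and scaRNAs do the same for spliceosomal RNAs in Cajal bodies. The spliced host RNA that remains has little coding capacity, and for many hosts it is degraded by nonsense-mediated decay (NMD) when it is translated. Many hosts start with a 5' terminal oligopyrimidine tract (5'TOP), a C followed by a run of C and T, which they share with the mRNAs of ribosomal proteins and of translation factors. GAS5 was named for its rise in growth-arrested cells, and SNHG1 for being the U22 snoRNA host gene.

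The guide RNAs are shown first because they are what the hosts are known for, and because the count table hardly reports them. Among the members, 10 of the 11 annotated snoRNAs of GAS5 and all 8 of SNHG1 are of the C/D type. The lines below give 4 of those of SNHG1, 2 of GAS5, 1 of ZFAS1 and 1 of SNHG25, read from the GRCh38 genome at the RefSeq or GENCODE positions in the direction of the RNA. The C box (TGATGA) near the 5' end and the D box (CTGA) near the 3' end are in capitals. The last line is SNORA24 of SNHG8, an H/ACA box snoRNA, with the ACA box in capitals.
SNORD25 (SNHG1, chr11:62855565-62855631, minus strand): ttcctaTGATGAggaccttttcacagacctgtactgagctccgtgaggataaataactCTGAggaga
SNORD29 (SNHG1, chr11:62853904-62853968, minus strand): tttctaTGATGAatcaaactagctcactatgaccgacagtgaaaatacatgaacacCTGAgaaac
SNORD30 (SNHG1, chr11:62853663-62853732, minus strand): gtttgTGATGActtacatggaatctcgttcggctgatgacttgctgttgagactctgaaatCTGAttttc
SNORD31 (SNHG1, chr11:62853326-62853393, minus strand): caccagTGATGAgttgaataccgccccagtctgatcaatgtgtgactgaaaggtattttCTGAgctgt
SNORD44 (GAS5, chr1:173865968-173866028, minus strand): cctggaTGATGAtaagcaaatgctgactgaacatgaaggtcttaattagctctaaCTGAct
SNORD76 (GAS5, chr1:173866635-173866715, minus strand): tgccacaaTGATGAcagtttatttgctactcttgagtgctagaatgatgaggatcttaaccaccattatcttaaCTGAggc
SNORD12C (ZFAS1, chr20:49278945-49279023, plus strand): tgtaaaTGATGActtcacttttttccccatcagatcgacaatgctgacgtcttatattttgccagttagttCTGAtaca
SNORD104 (SNHG25, chr17:64146078-64146157, plus strand): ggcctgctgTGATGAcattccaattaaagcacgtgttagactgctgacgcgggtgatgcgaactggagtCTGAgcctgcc
SNORA24 (SNHG8, chr4:118279190-118279320, plus strand): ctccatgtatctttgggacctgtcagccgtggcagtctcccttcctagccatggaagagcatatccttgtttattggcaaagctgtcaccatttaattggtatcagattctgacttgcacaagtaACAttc

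The start sites are shown next, since the 5'TOP is the feature that ties the hosts to the translation machinery. RefSeq promoter windows (GRCh38.p14) were matched for 28 of the 32 members. A start was called 5'TOP-like where the annotated first base is C and the next 4 bases are C or T, on the strand of the gene. Such a start was found for 7 of the 28 members, or 25.0%, against 4.07% of 35116 promoters of all genes and 63.2% of 68 ribosomal protein genes. Within 5 bases of the annotated start on either side, the same letters were found for 13 members, or 46.4%, against 21.1% of all promoters. The 6 members with such a start that had FPKM over 0.5 are given below, with 30 bases on either side of the start and the pyrimidine run in capitals.
SNHG32 (chr6:31834886-31834945, plus strand): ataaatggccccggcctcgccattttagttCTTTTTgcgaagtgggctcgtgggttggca
SNHG5 (chr6:85678704-85678763, minus strand): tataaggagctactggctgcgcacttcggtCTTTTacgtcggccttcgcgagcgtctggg
ZFAS1 (chr20:49278612-49278671, plus strand): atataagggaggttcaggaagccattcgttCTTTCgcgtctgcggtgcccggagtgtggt
SNHG19 (chr16:2155329-2155388, minus strand): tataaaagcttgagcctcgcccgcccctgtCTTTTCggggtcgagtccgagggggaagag
SNHG4 (chr5:139274071-139274130, plus strand): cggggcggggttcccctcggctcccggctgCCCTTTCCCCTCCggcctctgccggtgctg
SNHG12 (chr1:28581844-28581903, minus strand): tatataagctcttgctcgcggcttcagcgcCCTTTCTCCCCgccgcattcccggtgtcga

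A match of these letters is a description and no proof of a working 5'TOP, and a start without them says only that the annotated first base is another one. RefSeq and the table do not always place the start at the same base. The E-box letters CACGTG, which are the same on both strands, were found in 2 of the 28 windows of 300 bases, or 7.14%, those of SNHG7 and SNHG30, against 7.26% of all promoters.

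The libraries held 21376239 (Huh7, 5 mM), 30085303 (Huh7, 25 mM), 30279716 (PLC, 5 mM) and 16049686 (PLC, 25 mM) counted reads. A count of 3 reads corresponds to between 0.0991 and 0.187 RPM, a unit in which the counts are scaled to a common library total. Of 8 hepatocyte markers all had FPKM over 0.5 in Huh7 cells and 7 in PLC cells, where TTR had 4 and 0 reads. HNF4A had 29.0 and 31.1 FPKM in Huh7 and 35.0 and 38.5 in PLC cells, while ALB had 2017 and 2039 in Huh7 and 52.4 and 72.3 in PLC cells. AFP had 1256 and 1434 FPKM in Huh7 and 306.3 and 1011 in PLC cells. AFP, APOA1 and SERPINA1 were higher at 25 mM in PLC cells, with ratios of 3.30, 3.46 and 2.34, and their part in the values of the hosts was not tested. The leukocyte marker PTPRC had at most 5 reads in a library and the fibroblast marker COL1A1 at most 20. The endothelial marker PECAM1 had 2.37 and 2.55 FPKM in Huh7 and 0.115 and 0.29 FPKM in PLC cells. In RNA of a whole culture, fewer cells with an RNA and less RNA per cell cannot be told apart.

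The members together took 0.151% and 0.132% of all reads in Huh7 cells at 5 and 25 mM, and 0.164% and 0.123% in PLC cells. SNHG14 alone had 8948 and 5817 reads in PLC cells, spread over a very long transcript. Without it the share was 0.15% and 0.131% in Huh7 and 0.135% and 0.0867% in PLC cells. Levels are given below as FPKM, in which the reads are divided by the exon length of the gene and by the total of the library, so that genes can be compared. In at least 1 library, 29 of the 32 members had FPKM over 0.5. SNHG28 and SNHG18 had 0 reads in every library, and SNHG22 had 20, 21, 8 and 0 reads in Huh7 cells at 5 and 25 mM and PLC cells at 5 and 25 mM.

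**Figure D1:**
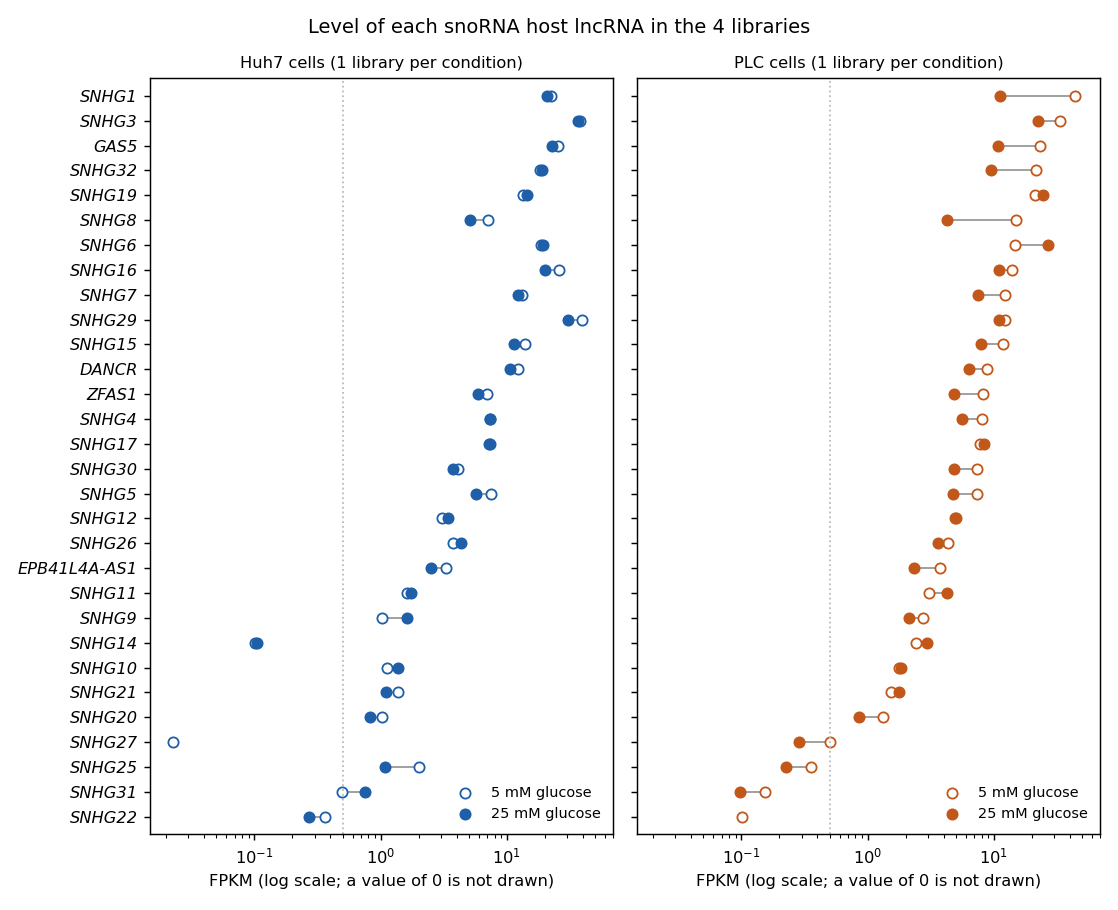
Level of the 29 snoRNA host lncRNAs that had FPKM over 0.5 in at least 1 library, in Huh7 cells (left) and PLC cells (right), with open points for 5 mM and filled points for 25 mM glucose. The horizontal axis is FPKM on a log scale, the dotted line marks 0.5 FPKM, and each point is 1 library. In PLC cells SNHG1 lies at 44.2 and 11.1 FPKM and SNHG6 at 14.8 and 26.7 FPKM, while in Huh7 cells the points of SNHG1 lie at 22.4 and 21.0 FPKM.

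The most abundant hosts per length were SNHG29 and SNHG3 in Huh7 cells and SNHG1 and SNHG3 in PLC cells at 5 mM. In Huh7 cells at 5 mM the order was SNHG29 with 39.7 FPKM (exact 95% Poisson interval 38.7 to 40.7), SNHG3 with 37.8 (36.5 to 39.1), SNHG16 with 26.0 (25.1 to 27.0), GAS5 with 25.6 (24.6 to 26.6) and SNHG1 with 22.4 (21.4 to 23.4). These intervals cover counting error only, and those of SNHG29 and SNHG3 and of SNHG16 and GAS5 overlapped. In PLC cells at 5 mM it was SNHG1 with 44.2 FPKM (43.0 to 45.4), SNHG3 with 33.2 (32.2 to 34.3), GAS5 with 23.3 (22.6 to 24.1), SNHG32 with 21.4 (20.2 to 22.7) and SNHG19 with 21.1 (18.4 to 24.1), and the last 3 could not be ordered within their intervals. In PLC cells at 25 mM SNHG6, SNHG19 and SNHG3 led with 26.7, 24.6 and 22.4 FPKM. Their intervals were 24.5 to 29.1, 20.6 to 29.1 and 21.2 to 23.5. SNHG1 and GAS5 had moved below these hosts, to ranks 4 and 7, with SNHG16 and SNHG29 between them. SNHG1, SNHG16, SNHG29 and GAS5 had 11.1, 11.0, 10.9 and 10.9 FPKM there, and they could not be ordered within their intervals.

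The first question was whether the hosts differ between 5 and 25 mM glucose within a line. By the thresholds given next, 12 of 27 expressed hosts were lower at 25 mM in PLC cells, while in Huh7 cells 1 of 27 was. The ratio of the 25 mM to the 5 mM library was taken after 0.1 FPKM had been added to both. A host was counted as lower at a ratio under 0.67 and as higher at one over 1.5, provided that its FPKM was over 0.5 in either library of the line. In PLC cells 12 of 27 hosts were lower by this rule, or 44.4%, against 17.0% of all 21749 genes with FPKM over 0.5, and 1 was higher, against 26.2% of all genes. With TMM scaling of the libraries 14 hosts were lower in PLC cells, against 20.9% of all genes. The count was 6 where 1 FPKM was added in place of 0.1, and 4 hosts had a ratio under 0.5. Shares of all genes under these rules are not given here. Among the 7 expressed members whose exons overlap no exon of a gene other than small RNAs the count was 3. Among the 2 expressed members free of any overlap it was 1. These alternatives keep fewer hosts. In Huh7 cells 1 of 27 was lower and 1 higher, against 13.7% and 14.1% of all 21864 genes. No host was called the same way in both lines, and the share of all genes so called is not given here. The only calls in Huh7 cells were SNHG9 and SNHG25, and SNHG25 was under the FPKM limit in PLC cells. Little room was thus left for a shared call. The median ratio of the hosts was 0.701 in PLC cells and 0.937 in Huh7 cells, while over all genes it was 1.08 and 1.03. On the log2 scale these medians are -0.51 and -0.09 for the hosts and 0.11 and 0.04 for all genes.

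Directions were counted without regard to size. Of the 25 hosts with FPKM over 0.5 in both lines, 15 had a ratio below 1 in both, 6 had a ratio above 1 in both, and 18 had the lower ratio in PLC cells. Of the 18108 such genes of the whole table, 23.5% were below 1 in both lines, 34.3% were above 1 in both, and 46.5% had the lower ratio in PLC cells. The exact (Clopper-Pearson) 95% interval of the ratio, calculated from the reads without the added 0.1, lay wholly below 1 for 18 of 27 hosts in PLC cells and for 10 of 27 in Huh7 cells, against 22.7% and 19.4% of all genes expressed in the line. It lay above 1 for 3 hosts in PLC cells and for 1 in Huh7 cells, against 33.2% and 25.0% of all genes. These intervals hold no variation between cultures.

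**Figure D2:**
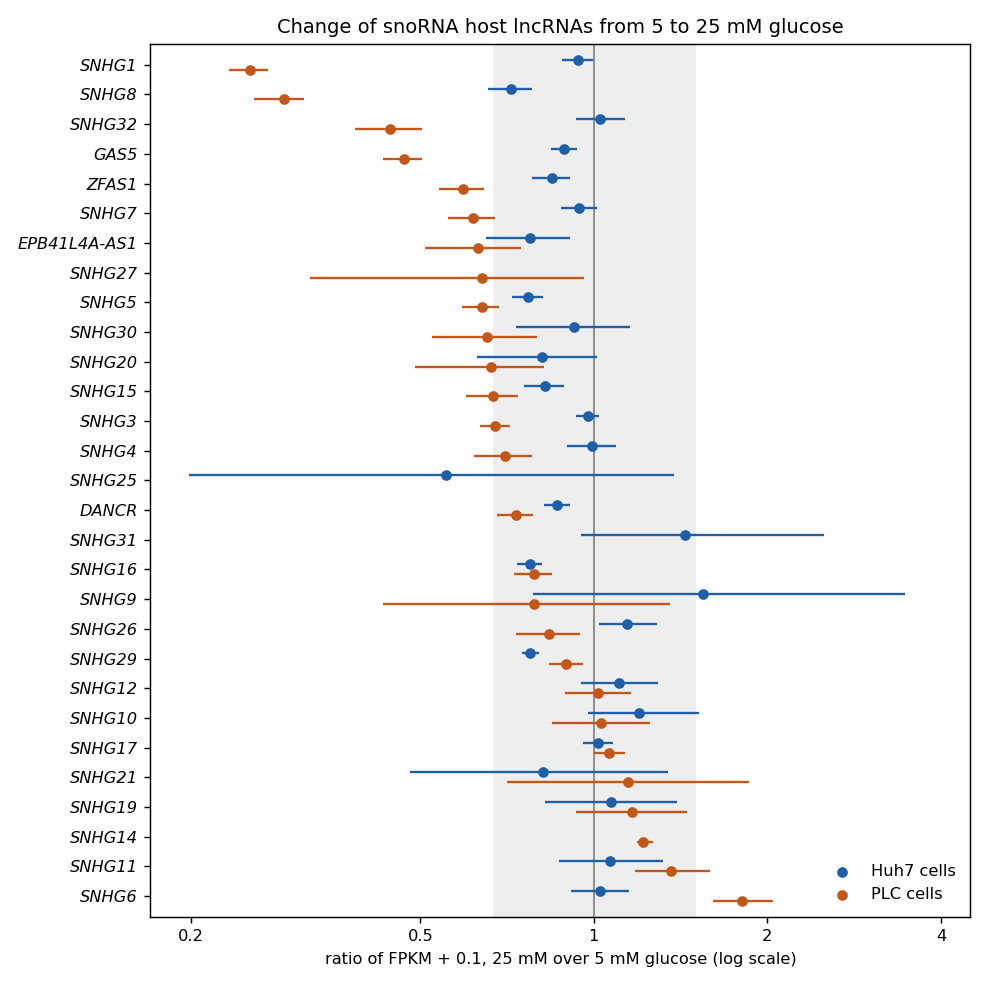
Ratio of the level at 25 mM to the level at 5 mM glucose for each snoRNA host lncRNA with FPKM over 0.5 in a library of the line, in Huh7 cells (blue) and PLC cells (orange), on a log scale. Bars are exact 95% intervals for counting error, and the grey band spans 0.67 to 1.5. SNHG1 in PLC cells lies furthest left, at 0.254, SNHG6 in PLC cells lies at 1.81, and most Huh7 points lie inside the band.

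SNHG1 and SNHG8 had the lowest ratios in PLC cells. SNHG1 carries 8 C/D box snoRNAs on chromosome 11 (GRCh38, 62851984 to 62855953), and its spliced RNA is often studied as a tumour-associated lncRNA. Its FPKM was 22.4 and 21.0 in Huh7 cells at 5 and 25 mM and 44.2 and 11.1 in PLC cells, from 1901, 2506, 5317 and 710 reads. The PLC library at 5 mM was the highest of the 4 and the PLC library at 25 mM the lowest, with both Huh7 libraries between them. The ratio was 0.254 (0.233 to 0.273) in PLC cells and 0.937 (0.882 to 0.995) in Huh7 cells. Among all genes with FPKM over 0.5, SNHG1 was at percentile 3.83 of the ratios in PLC cells.

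SNHG8 carries the H/ACA box snoRNA SNORA24 on chromosome 4. Its FPKM was 7.16 and 5.13 in Huh7 and 15.0 and 4.26 in PLC cells, so that the PLC library at 5 mM stood above the 3 others. The ratio was 0.719 (0.655 to 0.781) in Huh7 and 0.29 (0.258 to 0.315) in PLC cells. Of its counted exon bases, 37.6% lie opposite exons of PRSS12, a serine protease gene, which had only 2, 10, 2 and 8 reads in the 4 libraries and lay under 0.5 FPKM in each.

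GAS5 and SNHG32 were lower by more than a factor of 2 in PLC cells. GAS5 lies on chromosome 1 (173858559 to 173868882), and it had 25.6 and 22.7 FPKM in Huh7 and 23.3 and 10.9 in PLC cells. At 5 mM the lines were close, and the PLC library at 25 mM stood apart from the 3 others. The ratio was 0.468 (0.431 to 0.502) in PLC cells and 0.888 (0.843 to 0.935) in Huh7 cells. SNHG32, a C/D box host whose start is among those printed above, had 18.4 and 18.9 FPKM in Huh7 and 21.4 and 9.44 in PLC cells. Its ratio was 0.443 (0.385 to 0.503) in PLC cells and 1.03 (0.932 to 1.13) in Huh7 cells, where the interval included 1.

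ZFAS1, SNHG5, SNHG7 and EPB41L4A-AS1 followed with ratios between 0.594 and 0.641 in PLC cells. ZFAS1, the antisense RNA at the start of ZNFX1 and host of the SNORD12 snoRNAs, had 7.01 and 5.90 FPKM in Huh7 and 8.21 and 4.83 in PLC cells. SNHG5, host of SNORD50A and SNORD50B, had 7.44 and 5.70 FPKM in Huh7 and 7.41 and 4.72 in PLC cells. At 5 mM the levels of SNHG5 in the lines differed by less than counting error, and the 25 mM library was the lower one in each line. SNHG7 had 13.1 and 12.3 FPKM in Huh7 and 12.3 and 7.55 in PLC cells. EPB41L4A-AS1, host of SNORA13, had 3.30 and 2.53 FPKM in Huh7 and 3.74 and 2.31 in PLC cells, and 56.4% of its exon bases lie opposite EPB41L4A, which had 19 and 19 reads in Huh7 and 16 and 8 in PLC cells.

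The other 4 of the 12 hosts counted as lower in PLC cells were SNHG27, SNHG30, SNHG20 and SNHG15. SNHG30, host of SNORD7, had 7.42 and 4.81 FPKM in PLC cells and a ratio of 0.653 (0.524 to 0.798). SNHG20, a scaRNA host, had 1.33 and 0.85 FPKM and a ratio of 0.662 (0.49 to 0.82). SNHG27 was near the limit of detection, with 63 and 19 reads in PLC cells and 2 and 0 in Huh7 cells. Its FPKM in PLC cells was 0.504 at 5 mM and 0.287 at 25 mM. It passed the limit of 0.5 only by the library in which it was higher, so its call as lower carries little weight. Where FPKM over 0.5 was required in both libraries, the count of lower hosts was 11. SNHG15 stood just inside the threshold with a ratio of 0.669 and SNHG3 just outside it with 0.674, so the count of 12 rests on a limit that separates nearly equal values. SNHG3, host of SNORA73A and SNORA73B, had 37.8 and 36.9 FPKM in Huh7 and 33.2 and 22.4 in PLC cells.

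SNHG16, SNHG29, DANCR and SNHG4 are abundant hosts whose ratios stayed inside the thresholds in both lines when the libraries were scaled by their totals. In PLC cells SNHG4 passed the lower one with TMM scaling, at 0.645, and with DESeq2 size factors SNHG4 and DANCR did, at 0.640 and 0.668. SNHG16, host of SNORD1 snoRNAs, had 26.0 and 20.1 FPKM in Huh7 and 14.1 and 11.0 in PLC cells, with ratios of 0.773 (0.735 to 0.812) and 0.786 (0.726 to 0.846). SNHG29, host of SNORD49 and SNORD65 snoRNAs, had 39.7 and 30.8 FPKM in Huh7 and 12.2 and 10.9 in PLC cells, with ratios of 0.776 (0.749 to 0.803) and 0.894 (0.835 to 0.956). For SNHG29 the intervals of the lines did not overlap with scaling by library totals, and the lower ratio was that of Huh7 cells. With TMM scaling its ratios lay closer together, at 0.755 in Huh7 and 0.823 in PLC cells. No intervals were calculated for that scaling, so a lack of overlap is not shown there. DANCR, an lncRNA first described as holding back differentiation and host of SNORA26, had 12.4 and 10.7 FPKM in Huh7 and 8.76 and 6.38 in PLC cells. SNHG4 had 7.42 and 7.36 FPKM in Huh7 and 8.10 and 5.65 in PLC cells, and 626 of its exon bases are shared with MATR3 on the same strand, which had ratios of 1.20 and 1.22.

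The hosts that were not lower included the H/ACA host SNHG17, the C/D host SNHG19 and the mixed host SNHG12. SNHG17 had 7.26 and 7.38 FPKM in Huh7 and 7.82 and 8.31 in PLC cells, and its ratio in PLC cells was 1.06 (0.999 to 1.13). SNHG19 and SNHG12 start with the pyrimidine runs shown above, and their ratios in PLC cells were 1.16 (0.931 to 1.45) and 1.02 (0.89 to 1.16). SNHG10 had ratios of 1.20 and 1.03 and SNHG21 of 0.816 and 1.15, all with intervals that included 1. SNHG9, with between 12 and 46 reads, was the 1 host over 1.5 in Huh7 cells, and its interval of 0.783 to 3.46 included 1. SNHG25, with 12 and 9 reads in Huh7 cells, was the 1 host under 0.67 there, and its interval of 0.198 to 1.38 included 1.

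SNHG6, SNHG11 and SNHG14 had ratios above 1 in PLC cells with intervals that did not include 1. SNHG6, host of SNORD87, had 18.8 and 19.2 FPKM in Huh7 and 14.8 and 26.7 in PLC cells. The PLC libraries were thus the lowest and the highest of the 4, opposite in order to SNHG1. Its ratio was 1.81 (1.61 to 2.04) in PLC cells and 1.02 (0.913 to 1.15) in Huh7 cells. Of its exon bases, 29.3% lie opposite MCMDC2, which had 147 and 119 reads in Huh7 and 73 and 30 in PLC cells. SNHG11 had a ratio of 1.36 (1.18 to 1.59) in PLC cells. SNHG14, the long host of the SNORD115 and SNORD116 clusters in the imprinted Prader-Willi region, had 0.101 and 0.105 FPKM in Huh7 and 2.41 and 2.96 in PLC cells, with a ratio of 1.22 (1.19 to 1.27) in the latter. SNHG31 had 27 and 58 reads in Huh7 and 12 and 4 in PLC cells.

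Hosts of both snoRNA types were among the lower ones. In PLC cells 12 hosts with more C/D than H/ACA snoRNAs had a median ratio of 0.719, with 6 under 0.67, and 12 hosts with more H/ACA snoRNAs had a median ratio of 0.687, with 5 under 0.67. In both classes the ratios ran from under 0.3 to over 1.3. The 3 scaRNA hosts ranged from 0.662 to 1.15. In PLC cells the 6 hosts with a 5'TOP-like annotated start had a median ratio of 0.671, ranging from 0.443 to 1.16, and the 18 with another start had 0.703, ranging from 0.254 to 1.36. These medians are descriptions, and no test was made of the differences between them.

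A change shared by both lines was examined with edgeR's quasi-likelihood test on the counts, with cell line as a covariate. The lines are not replicate cultures and the fit has 1 residual degree of freedom. Of 29 hosts tested, 0 had an adjusted p under 0.05 in edgeR, against 0.379% of all 23217 genes tested. By the filter on counts these 29 include SNHG22 and not SNHG25, unlike the 29 with FPKM over 0.5. At an unadjusted p under 0.05 there were 5 hosts, all lower at 25 mM, and over all genes 8.51% of those tested. The hosts were SNHG8, SNHG1, GAS5, SNHG5 and ZFAS1. SNHG8 had a log2 fold change of -1.22 (standard error 0.32, unadjusted p = 0.00193, adjusted p = 0.14 by edgeR with Benjamini-Hochberg adjustment), and it was lower in both lines. SNHG1 had -1.12 (standard error 0.37, adjusted p = 0.308 by edgeR). Of the 29 log2 fold changes, 21 were below 0, and the share below 0 over all genes tested is not given here. With DESeq2 0 and with limma-voom 0 hosts had an adjusted p under 0.05, with 4 and 5 under 0.05 unadjusted. Unadjusted, 2.89% of all genes were under 0.05 by DESeq2 and 9.56% by limma-voom. Without the filter on low counts edgeR called 2 hosts, SNHG1 and SNHG8, against 526 of 38660 genes tested, or 1.36%. Without the cell line term 0 hosts and 0.224% of all genes had an unadjusted p under 0.05.

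Gene lists that share a feature with the hosts were set beside them. They were chosen with earlier results of these data known. The 163 expressed of 180 protein-coding snoRNA hosts, mRNAs whose introns also carry snoRNAs, had a median ratio of 0.986 in Huh7 and 0.974 in PLC cells. Of them 11.7% were lower and 10.4% higher in PLC cells, and edgeR called 0 of 169 tested, with 19 at an unadjusted p under 0.05. Of the 1180 expressed genes that GENCODE 44 lists as lncRNA under the same symbol, 15.6% were lower and 31.1% higher in PLC cells, with a median ratio of 1.17. RPL13A, a ribosomal protein mRNA that carries C/D snoRNAs, had ratios of 0.811 in Huh7 and 0.928 in PLC cells. EIF4A2, a helicase gene with several snoRNAs, was the 1 of 10 named mRNA hosts under 0.67 in PLC cells, at 0.607, with 0.755 in Huh7 cells.

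The ratios of mRNAs with a 5'TOP lay nearer to 1 than those of the lncRNA hosts in PLC cells, a difference that was not tested. The ribosomal protein mRNAs had a median ratio of 0.95 over 82 genes in Huh7 and 1.03 over 80 genes in PLC cells, where 2 were lower and 5 higher by the thresholds. Of the other 5'TOP mRNAs, translation factors and their like, 13 of 15 had a ratio below 1 in Huh7 and 11 of 15 in PLC cells, with medians of 0.866 and 0.837. EEF1B2, an elongation factor subunit, had ratios of 0.745 and 0.633, and PABPC1, the cytoplasmic poly(A)-binding protein, had 0.866 and 0.657. HNRNPA1, an RNA-binding protein gene, had 1.07 and 2.13. By edgeR 0 of 83 ribosomal protein genes and 0 of 15 other 5'TOP genes had an adjusted p under 0.05, with 4 and 6 under 0.05 unadjusted.

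**Figure D3:**
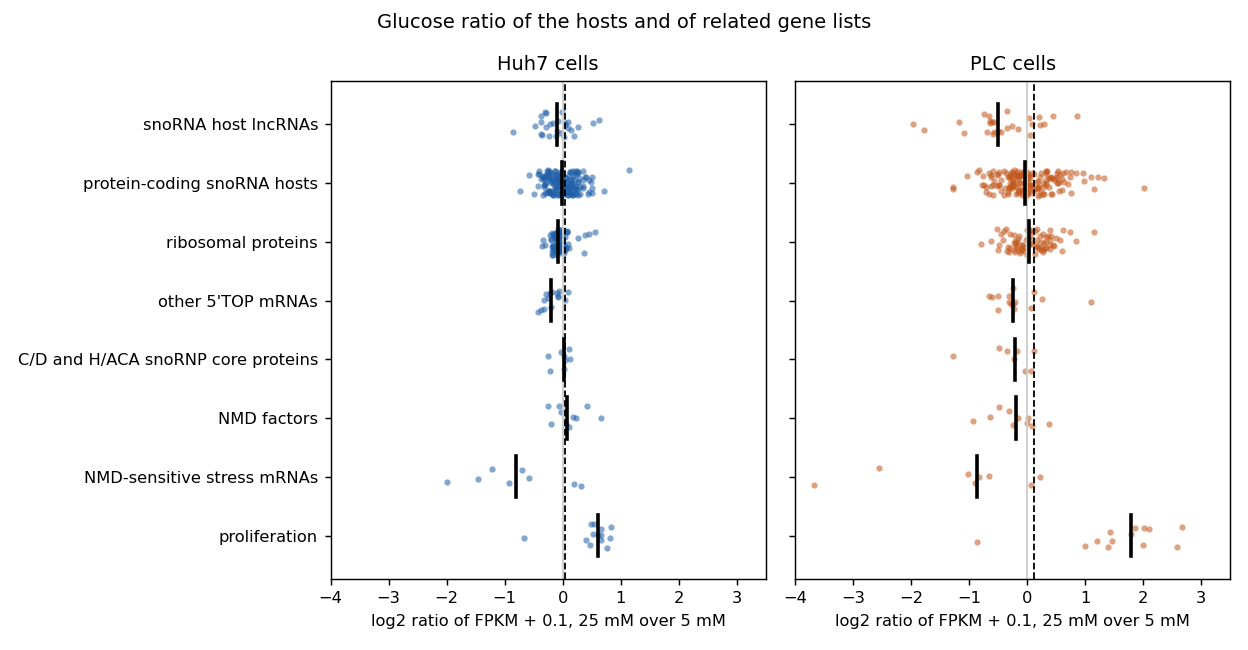
Log2 ratio of the level at 25 mM to the level at 5 mM glucose for the genes with FPKM over 0.5 in 8 lists, in Huh7 cells (left) and PLC cells (right). Each point is a gene, the black bar is the median of a list, and the dashed line is the median of all genes with FPKM over 0.5. In PLC cells the median is -0.51 for the snoRNA host lncRNAs, -0.87 for the NMD-sensitive stress mRNAs and 1.79 for the proliferation genes.

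Few genes of the proteins that bind the snoRNAs passed the thresholds. Of the 8 core proteins of C/D and H/ACA particles, 0 passed a threshold in Huh7 and 1 was lower in PLC cells, with median ratios of 1.01 and 0.867. That one was NOP58, a scaffold of C/D particles, with 48.8 and 49.4 FPKM in Huh7 and 69.2 and 28.5 in PLC cells, a ratio of 0.413 in the latter. FBL, the C/D methyltransferase fibrillarin, had ratios of 1.08 and 0.977, and DKC1, the H/ACA pseudouridine synthase dyskerin, had 1.03 and 0.715. Of 9 assembly factors, ZNHIT6 alone passed, at 0.578 in PLC cells. By edgeR 0 of the 8 core proteins and 0 of the 9 assembly factors had an adjusted p under 0.05, with 1 and 1 under 0.05 unadjusted.

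The NMD factors and the mRNAs that NMD is known to degrade were examined because many spliced hosts are substrates of the same decay. The counts of the hosts are not of spliced RNA alone. Counted exons take up 100% of the span of SNHG1, SNHG8 and SNHG15, and all 11 snoRNAs of GAS5 lie inside its counted exons. For such hosts spliced and unspliced RNA cannot be told apart. Of 10 NMD factors 1 was higher in Huh7 and 2 were lower in PLC cells, with median ratios of 1.06 and 0.868. UPF1, the central helicase of NMD, had ratios of 1.07 and 1.05. UPF3B had 1.59 and 0.524, and SMG5 had 1.04 and 0.643. Of 8 NMD-sensitive stress mRNAs 6 were lower in each line, with medians of 0.57 and 0.547. ATF3 had 4.90 and 1.16 FPKM in Huh7 and 40.3 and 3.04 in PLC cells, and GADD45A had 22.6 and 9.65 in Huh7 and 19.2 and 3.17 in PLC cells. For edgeR these were the 2 genes of the list with an adjusted p under 0.05, with log2 fold changes of -3.01 for ATF3 (adjusted p = 0.00329 by edgeR) and -1.96 for GADD45A (adjusted p = 0.0317 by edgeR), while 6 of 8 had an unadjusted p under 0.05. Not lower in either line were MAP3K14, with ratios of 1.14 in Huh7 and 1.16 in PLC cells, and TBL2, with 1.25 and 1.05. Several mRNAs of the list are also targets of the amino acid and unfolded protein responses. The part of NMD or of these responses in the values of the hosts was not tested.

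Most proliferation genes were higher at 25 mM. In PLC cells 12 of 13 were higher and in Huh7 cells 7 of 13, with median ratios of 3.46 and 1.53. MKI67, the antigen Ki-67 of cycling cells, had 57.3 and 97.3 FPKM in Huh7 and 5.97 and 38.2 in PLC cells. The exception was MYC, a transcription factor gene, with 35.3 and 22.3 FPKM in Huh7 and 28.2 and 15.3 in PLC cells, ratios of 0.633 and 0.546. By edgeR 0 of 13 had an adjusted p under 0.05 and 13 an unadjusted p under 0.05. The part of a difference in cell growth between the cultures in the values of the hosts was not tested.

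The second question was how the hosts differ between the lines. Huh7 against PLC cells were compared in the same edgeR fit, in which the cultures at 5 and 25 mM stand in for replicates of a line, which they are not. Of the 29 hosts tested 7 had an adjusted p under 0.05, or fewer than the 42.9% of all genes tested. SNHG14 was higher in PLC cells by 4.70 on the log2 scale (standard error 0.25), and SNHG27 by 5.21 (standard error 1.0), from 63 and 19 reads against 2 and 0. SNHG11 was also higher in PLC cells, by 1.11. Higher in Huh7 cells were SNHG29 by 1.59 (standard error 0.21, adjusted p = 5.39e-05 by edgeR), SNHG31 by 2.20, SNHG16 by 0.87 and DANCR by 0.61 on the log2 scale. The count was 5 with DESeq2, 5 with at least 10 reads in every library and 6 without the glucose term. DANCR lost its call with DESeq2 (adjusted p = 0.0562) and without the glucose term (adjusted p = 0.119 by edgeR), SNHG31 was not called by DESeq2, and neither SNHG31 nor SNHG27 was tested under the minimum of 10 reads.

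Some hosts changed their order between the lines with the glucose level. SNHG1 was 1.97-fold higher in PLC than in Huh7 cells at 5 mM (1.87 to 2.08) and lower at 25 mM, with a ratio of 0.533 (0.488 to 0.577). SNHG8 had a PLC to Huh7 ratio of 2.07 at 5 mM and 0.835 at 25 mM. SNHG32 had 1.16 and 0.501, and SNHG6 had 0.788 and 1.39. SNHG29 and SNHG16 kept their order, with PLC to Huh7 ratios of 0.31 and 0.357 for SNHG29 and 0.542 and 0.55 for SNHG16. With 1 library per condition the difference in response between the lines cannot be tested.

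**Figure D4:**
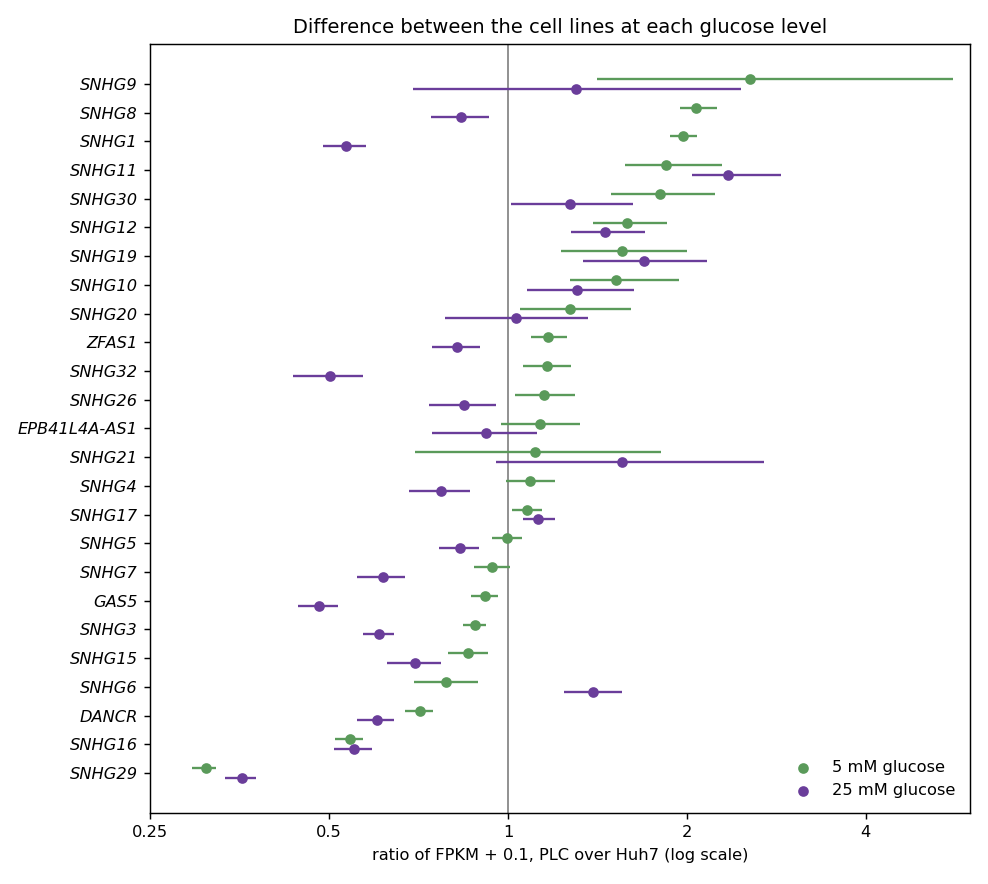
Ratio of the level in PLC cells to the level in Huh7 cells for the snoRNA host lncRNAs with FPKM over 0.5 in both lines, at 5 mM (green) and 25 mM glucose (purple), on a log scale. Bars are exact 95% intervals for counting error. SNHG1, at 1.97 and 0.533, and SNHG8, at 2.07 and 0.835, lie on opposite sides of 1 at 5 and 25 mM, while SNHG29, at 0.31 and 0.357, lies on the left at both.

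The snoRNAs themselves were looked for in rows of their own. Of the snoRNAs inside a member, 60 with a row of their own lie within counted exons of the host, and 0 of them had a read in any library. This holds for the genes SNORD25 and SNORD30 printed above, so their levels cannot be read from these counts. The rows of SNORD22, SNORD27 and SCARNA17 start elsewhere than the annotated snoRNA and were left out, with 0 reads for SNORD22 and SCARNA17 and 1, 2, 2 and 2 for SNORD27. Of 13 snoRNAs that lie partly in counted exons 2 had reads, SNORD7 and SNORD12B, 20 in all. Of 57 that share no base with them 14 had reads, in which a mature snoRNA and an unspliced host intron cannot be told apart. SNORA73B of SNHG3 had most of them, with 1897 and 2503 reads in Huh7 and 4195 and 1733 in PLC cells. Its ratio was 0.938 (0.883 to 0.996) in Huh7 and 0.779 (0.737 to 0.824) in PLC cells, where the ratio of SNHG3 was 0.674 (0.634 to 0.715).

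In PLC cells 3 further snoRNAs had higher ratios than their host, with intervals that did not overlap. Apart from these and SNORA73B, the interval of every snoRNA with reads there overlapped that of its host. SNORD12C, printed above, had 72 and 111 reads in Huh7 and 64 and 45 in PLC cells. Its ratio in PLC cells was 1.33 (0.885 to 1.97), where that of its host ZFAS1 was 0.594 (0.538 to 0.643). SNORA74D of SNHG4 had a ratio of 1.26 (0.983 to 1.61) in PLC cells, where SNHG4 had 0.701 (0.621 to 0.782). SNORD1B of SNHG16 had only 5 and 10 reads in PLC cells, a ratio of 3.77 (1.18 to 14.1) where SNHG16 had 0.786. SNORA74A, in another intron of SNHG4, had a ratio of 0.74 (0.587 to 0.926), close to that of the host. SNORD116-17 of SNHG14, with 17 and 4 reads in PLC cells, had a ratio of 0.444 (0.109 to 1.36), lower than the 1.22 of its host. SNORD104 of SNHG25 had 32 and 49 reads in Huh7 and 10 and 4 in PLC cells, more than its host had in each library. These are intervals for counting error in single libraries, and no replicate bears on them.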

How the data were processed

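RNA of Huh7 and PLC cells at 5 and 25 mM glucose, 1 library each, was sequenced by the authors after rRNA removal with a directional kit. The submitters' processing notes name HISAT2, featureCounts and hg38, without versions. Neither the annotation release nor the strand setting of the counting is given in the sources used here, so reads of genes on opposite strands at shared positions may not be told apart. The deposited values are counts of reads per gene, without normalization. Of 59657 lines, 5 of a broken entry were left out. The depth ranged from 16049686 to 30279716 reads.

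FPKM was calculated from the count, the exon length in the table and the library total, so that hosts whose introns were counted as exon (100% of the span of SNHG1, SNHG8, SNHG15 and SNHG9) have low values. Ratios had 0.1 FPKM added. A change was called at FPKM over 0.5 in at least 1 of 2 libraries and a ratio over 1.5 or under 0.67. Intervals were exact 95% binomial or Poisson intervals (scipy 1.17.1) and cover counting error only. Counts were tested with edgeR 4.0.16 (filterByExpr, TMM, quasi-likelihood, Benjamini-Hochberg over all genes, 0.05), with DESeq2 1.42.0 and limma 3.58.1 as alternatives. The edgeR test returns no standard error. Those printed are the absolute log2 fold change divided by the square root of the test's F statistic. The script was tested on simulated data. Genes of the table were matched to GENCODE 44 by symbol (38133 of 59652). The snoRNAs came from GENCODE 44 and RefSeq and the start windows from RefSeq (GRCh38.p14). All 32 members are accounted for, those with FPKM over 0.5 by their values. Other genes named are members of the lists, genes overlapping a member's exons, snoRNAs inside a member and marker genes. The members and lists were chosen with earlier results of these data known.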

Additional observations from a re-analysis of the deposited data

Results flagged for a closer look

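SNHG26, host of SNORD93, had ratios of 25 mM to 5 mM on opposite sides of 1, with 1.14 in Huh7 cells (95% interval 1.02 to 1.28) and 0.836 in PLC cells (0.732 to 0.946). It had 480 and 773 reads in Huh7 and 784 and 346 in PLC cells. With 1 library per condition this difference was not tested. By edgeR's quasi-likelihood test the change shared by the lines was -0.11 on the log2 scale (adjusted p = 0.979).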

How the results depend on the processing

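No pairing of replicate cultures was possible because each condition has 1 library and the columns carry no replicate number. The edgeR fit instead paired the glucose levels within each line by keeping the cell line as a covariate. Without that covariate 0 hosts had an unadjusted p under 0.05, against 5 with it. No library was left out of that fit, which would then have no residual degree of freedom. With TMM scaling log2 ratios move by about -0.04 (Huh7) and -0.12 (PLC), and by less at low FPKM because of the added 0.1. Under every alternative tried, 0 hosts were called the same way in both lines. Few hosts were called in Huh7 cells under any of them, which left little room for a shared call. The count lower in PLC cells was 6 with a pseudocount of 1 and 4 with ratios over 2 or under 0.5. For members free of any exon overlap it was 1 of 2 expressed. For those free of overlap with genes other than small RNAs, an alternative chosen after the data were seen, it was 3 of 7. It was between 11 and 15 under the others. The count higher in PLC cells was 0 under the stricter ratios and under both overlap alternatives. In Huh7 cells the count higher was 2 with no pseudocount and 0 with a pseudocount of 1, under the stricter ratios and for members free of overlap. The count lower there was 0 under the last 3 and with at least 20 reads. The median log2 ratio in Huh7 cells was 0.31 for the 2 expressed members free of overlap and 0.06 for the 8 free of overlap with genes other than small RNAs, so its sign depends on which hosts are kept. The edgeR fit called 2 hosts for glucose with no filter on low counts, and 2 of the 3 tested members free of overlap for the line. The causes were not tested, other than that the overlap alternatives keep fewer hosts. The ratios of single hosts kept their direction under every scaling and pseudocount wherever a threshold was passed.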
